A study of Mus musculus with 78 samples.

Results

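The comparison described here is the removal of methionine for 3 h from activated mouse CD8+ T cells, read as a change in translational efficiency (TE). For each gene, the ratio of polysome RNA to total RNA in cells without methionine was set against the same ratio in cells in complete medium. The contrast is between 12 libraries, 3 of polysome RNA and 3 of total RNA from the NoMethionine condition and as many from Control. The deposited count table has 60 libraries and the labels 78. The 18 monosome libraries were not analysed here. All genes of the table were members: 13072 of 14695 passed the filter on low counts and were tested.

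For NoMethionine, C57BL/6J CD8+ T cells taken from lymph node and spleen were activated and, on day 3, placed in methionine-free medium for 3 h. The Control cells had the same strain, tissue, activation and time, in medium with all nutrients. The labels give no sex or age, and do not say whether replicates 1 to 3 were separate cultures or animals. The p-values here reflect only the spread among lysates, estimated over all 6 conditions of the experiment together, and that spread may be technical. From each lysate, 50 µL was set aside for the total RNA library while 400 µL was spun through sucrose of 15 to 45%, and polysome RNA is the pool of fractions 9 to 13. A polysome library and a total library with the same number therefore came from the same lysate. Other conditions of the experiment lacked branched-chain amino acids (BCAA), glutamine, arginine or glucose. Their libraries entered the same fit, so they bear on the filter, the scaling and the spread behind every call. Results of these conditions are given only beside the response to methionine removal.

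In a sucrose gradient, an mRNA that carries many ribosomes sediments faster than one that carries few, so the polysome pool holds the mRNAs with several ribosomes. How many ribosomes an mRNA carries depends on how often translation starts, how fast ribosomes move and how long the coding sequence is. Methionine is the amino acid with which translation starts, and it is the source of S-adenosylmethionine (SAM), the methyl donor for DNA, RNA and protein methylation. Lack of an amino acid leaves its tRNA uncharged, which activates the kinase GCN2. GCN2 phosphorylates eIF2α and lowers initiation on most mRNAs while translation of the transcription factor ATF4 is favoured. Amino acid and SAM shortage are also sensed by the kinase mTORC1, whose activity favours translation of mRNAs that start with a run of pyrimidines (TOP mRNAs), among them those of ribosomal proteins.

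Total counts ran from 33297705 to 45882975 in NoMethionine polysome libraries and from 38298779 to 40846852 in Control polysome libraries. Total RNA libraries held 18670605 to 23828037 counts (NoMethionine) and 25705095 to 30637485 (Control). The lowest correlation of log values between libraries of a group was 0.988, in NoMethionine total RNA. Levels are in CPM, a gene's reads scaled by the size of its library. The sum of 8 CD8 T cell marker genes was 9767 to 11460 CPM in NoMethionine polysome RNA and 13870 to 17720 CPM in Control polysome RNA, and 8798 to 11050 CPM and 9857 to 11420 CPM in NoMethionine and Control total RNA. B cell markers, of which 3 of 6 were in the table, summed to 9.83 to 10.9 CPM and 15.0 to 17.9 CPM in NoMethionine and Control polysome RNA, and to 21.8 to 27.1 CPM and 26.0 to 28.2 CPM in total RNA. Among markers of CD4 T cells only Foxp3 was in the table, at 0.109 CPM or less. Of 7 markers of myeloid, 3 of NK and 5 of erythroid cells, 0 had a row among those used here, and of 6 markers of dendritic and stromal cells 1 had one, at 1.02 CPM or less. In bulk samples, fewer cells of a type and less RNA per cell cannot be told apart.

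A gene's TE change is the difference of 2 differences on the log2 scale, (polysome minus total in NoMethionine) minus (polysome minus total in Control), fitted with edgeR's quasi-likelihood test over all 36 libraries of the nutrient experiment. Values after ± are standard errors of the fit unless SD is written. A change was called at a Benjamini-Hochberg adjusted p of 0.05 or less. The value of a single lysate is its log2 ratio, log2 of polysome CPM over total CPM, with a prior count of 2 and CPM taken of the library size after TMM scaling. Ratios are relative: both libraries were scaled to their own totals, so a loss of polysomes shared by all mRNAs would not be seen, and luciferase RNA added in the protocol is not among the genes of the table.

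Without methionine, TE was higher for 2512 genes (19.2% of those tested) and lower for 3904 (29.9%). The median TE change of all genes was -0.14, and 90% of genes lay between the 5th percentile of -1.18 and the 95th of 0.86. As fitted, 828 genes were called at 2-fold or more below Control, and 229 at 2-fold or more above it. These cuts are counted from 0 and not from the median of all genes, and were not counted under other scalings. The split between higher and lower depended on the scaling. With entries derived from ribosomal RNA removed before scaling, 3229 genes were higher and 3162 lower, and the median of all genes moved by 0.12 to -0.01. With the 2 conditions fitted alone and those entries kept, 2856 genes were higher and 2814 lower, and the median was also -0.01. What in the scaling moved the median was not tested. The list medians below are as fitted and stand against the fitted median of all genes, -0.14, and the list counts against the 19.2% and 29.9%. Where removing those entries moved a list's count by over 1.5 times or turned its balance, both counts are given. The count without those entries stands against the 3229 higher and 3162 lower of that fit, and not against the 19.2% and 29.9%. Polysome RNA changed for 8737 genes (66.8%) and total RNA for 4505 (34.5%).

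**Figure D1:**
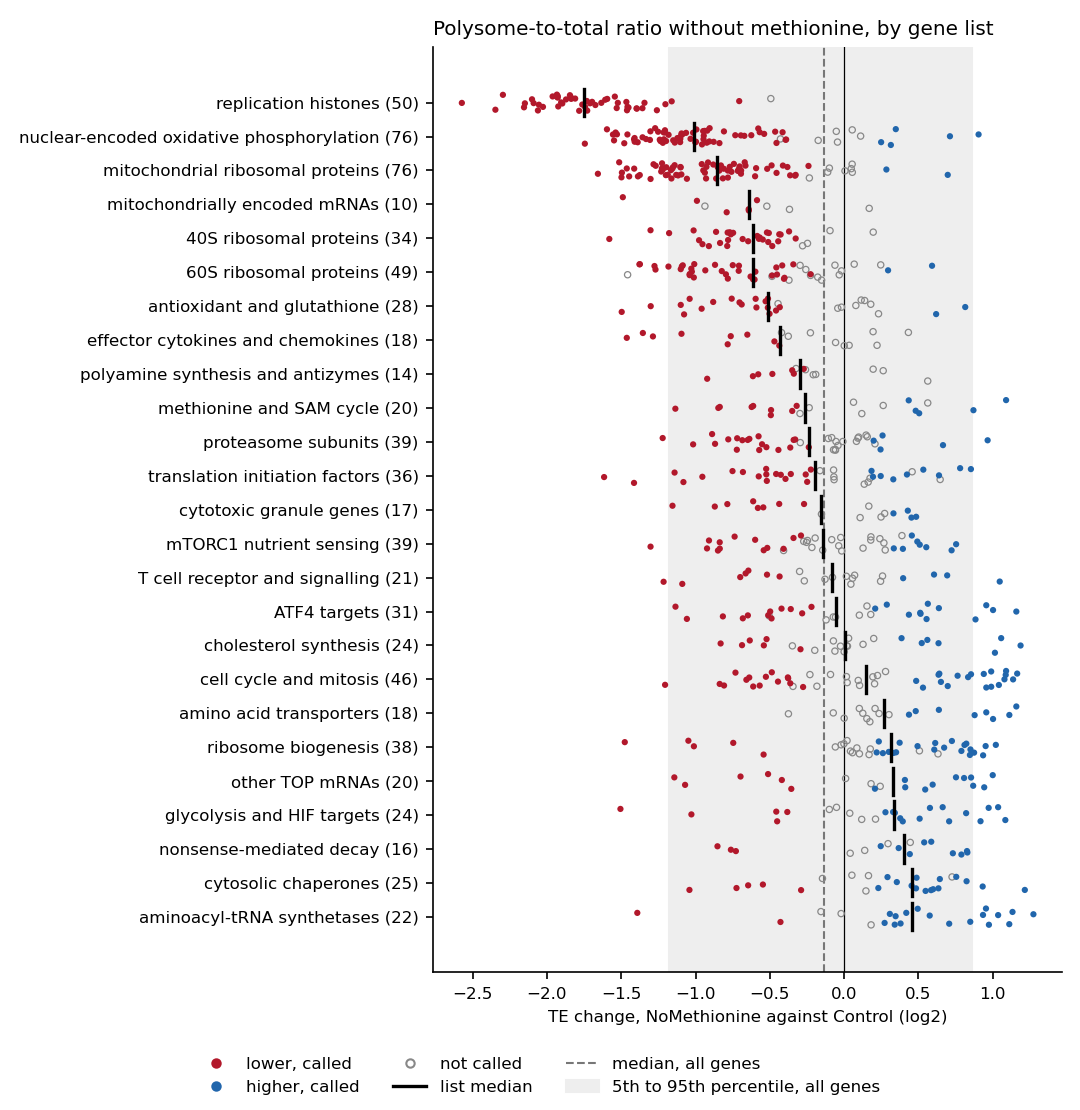
TE change of each measured member of 25 gene lists, NoMethionine against Control, on the log2 scale (x axis), with lists down the y axis and their number of measured genes in parentheses. Filled points passed the test (red lower, blue higher), open points did not, black bars are list medians, the dashed line is the median of all genes (-0.14) and the grey band runs from their 5th to their 95th percentile (-1.18 to 0.86). Replication histones lie almost wholly to the left of the band, with a median of -1.75, and aminoacyl-tRNA synthetases have the highest median of the lists drawn, 0.46.

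The highest of the 10 named by the rule (mean of at least 5 CPM, past the test, lysates separate) was Tfrc, the transferrin receptor through which T cells take up iron. Its log2 ratios were 0.59, 0.85 and 0.77 in the NoMethionine lysates and -0.50, -0.58 and -0.66 in the Control lysates. All 3 lysates without methionine lay above all Control lysates, and TE rose by 1.32 ± 0.15 (adjusted p = 1.5e-08). Polysome RNA of Tfrc was 1705 ± 156 CPM in NoMethionine and 839 ± 28.2 CPM in Control, while its total RNA was 1022 ± 10.4 CPM and 1257 ± 95.2 CPM (SD, n = 3 each). So the mRNA fell by 0.30 ± 0.10 in total RNA and rose by 1.02 ± 0.11 in polysomes. Os9, a lectin that marks misfolded glycoproteins for degradation, rose by 1.29 ± 0.18, and Eprs1, the glutamyl-prolyl-tRNA synthetase, by 1.27 ± 0.14. Hsp90aa1, the stress-inducible cytosolic HSP90, rose by 1.22 ± 0.15, the actin-severing gelsolin gene Gsn by 1.25 ± 0.18 and the non-muscle myosin heavy chain gene Myh10 by 1.23 ± 0.25. The zinc finger genes Zfp267 (1.26 ± 0.13) and Zfp84 (1.25 ± 0.12), the antibody receptor and ubiquitin ligase gene Trim21 (1.30 ± 0.20) and the leukotriene B4 receptor gene Ltb4r1 (1.24 ± 0.19) complete the 10. Zfp84 also rose in total RNA, by 1.16 ± 0.09, to 52.9 ± 4.72 CPM, against 23.7 ± 0.994 CPM in Control (SD, n = 3 each).

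Of the 10 lowest genes by the same rule, 9 encode replication histones. H2ac11, an H2A gene, was lowest, with log2 ratios of -1.83, -4.02 and -2.39 in the NoMethionine lysates and -0.19, -1.18 and 0.17 in the Control lysates and a TE that fell by 2.57 ± 0.66. The groups did not overlap, but lysate 2 was far below the other NoMethionine lysates. The gene of the 10 that encodes no histone was Rpl35rt, a retrocopy of the ribosomal protein gene Rpl35, which fell by 1.94 ± 0.22. Its reads may be shared with Rpl35, which fell as well (-1.38 ± 0.16), and the near-identical histone genes may share reads with one another, so single members of these families are uncertain. Across all 13072 genes, the 3 NoMethionine lysates lay above all Control lysates for 2984 (22.8%) and below them for 4419 (33.8%).

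**Figure D2:**
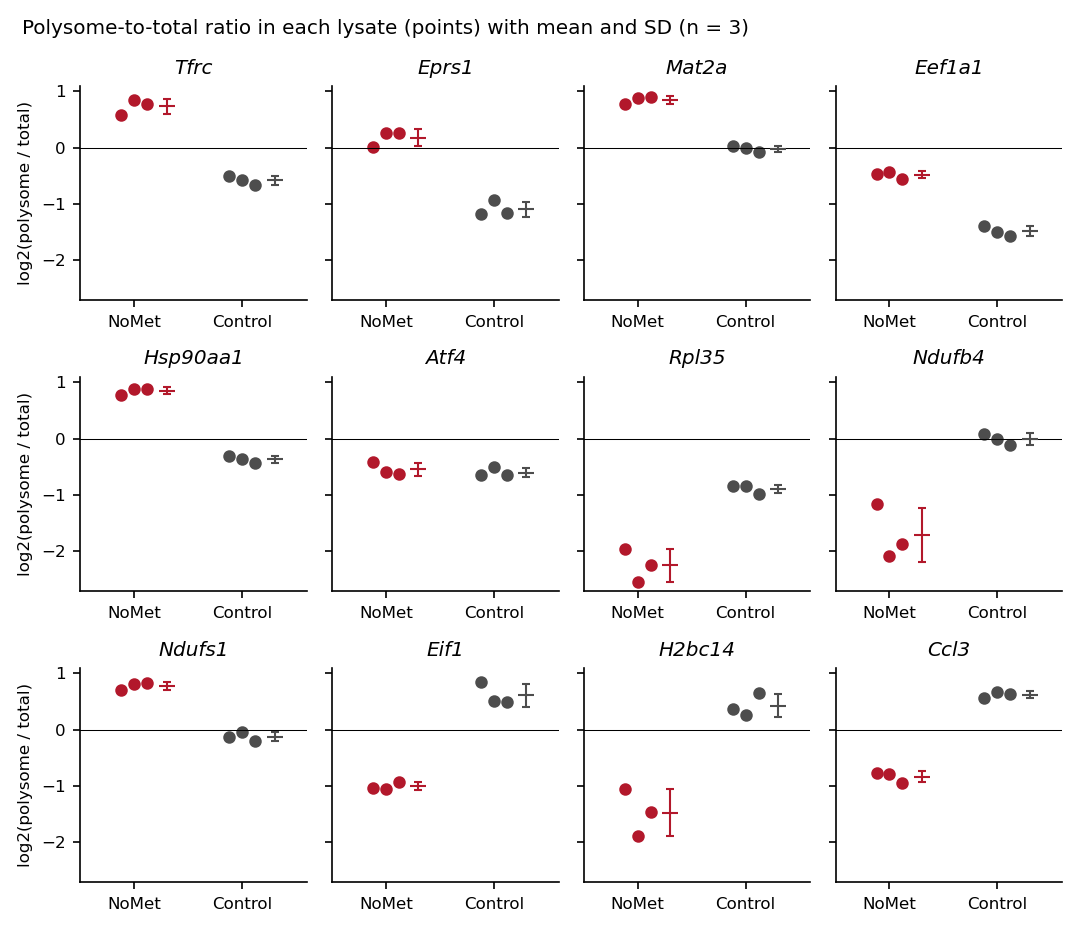
The log2 ratio of polysome to total RNA (y axis) in each of the 3 NoMethionine lysates (left, red) and the 3 Control lysates (right, grey) for 12 genes, with the mean and SD (n = 3) beside the points. Tfrc, Eprs1, Mat2a, Eef1a1, Hsp90aa1 and Ndufs1 lie higher in every NoMethionine lysate, Rpl35, Ndufb4, Eif1, H2bc14 and Ccl3 lie lower in every one, and Atf4 overlaps.

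Ribosomal proteins of both subunits had lower polysome occupancy without methionine, while their total RNA stayed close to Control. Of 34 proteins of the 40S subunit, TE fell for 30, where 29.9% of all genes fell, with a median of -0.62, -0.48 relative to that of all genes. The count that rose was 0 with edgeR's test, 1 at an unadjusted p under 0.05 and 1 with DESeq2. Of 49 proteins of the 60S subunit, it fell for 34 and rose for 2 (median -0.61, -0.48 relative to that of all genes). The median change in total RNA was -0.02 and 0.00 for the 40S and 60S proteins, against -0.62 and -0.64 in polysome RNA. Ribosomal protein mRNAs made up 5.15 to 5.30% of counts in NoMethionine polysome libraries and 6.92 to 7.34% in Control polysome libraries. In total RNA they made up 12.1 to 15.0% (NoMethionine) and 13.1 to 14.0% (Control), so those ranges overlapped.

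TOP mRNAs are recognised by their first bases, which are shown here for 3 ribosomal protein genes whose TE fell, 2 whose change did not pass and 2 other TOP mRNAs. Each line gives 30 bases around the start annotated in RefSeq (mouse build GRCm38.p6, 5′ to 3′ on the gene's strand), 15 before the start and 15 from it on, with the pyrimidine run that begins at the start in capitals.
Rpl35 (chr2:39005117-39005146, minus strand): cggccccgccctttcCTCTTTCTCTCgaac
Rpl15 (chr14:18270972-18271001, minus strand): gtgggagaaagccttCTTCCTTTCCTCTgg
Rps15a (chr7:118116133-118116162, minus strand): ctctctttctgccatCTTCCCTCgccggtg
Rps10 (chr17:27635230-27635259, minus strand): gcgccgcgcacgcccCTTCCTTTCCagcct
Rpl14 (chr9:120571502-120571531, plus strand): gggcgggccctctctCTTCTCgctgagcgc
Nap1l1 (chr10:111473212-111473241, plus strand): ggcgggctctcgggtCTTTTTTagcgccat
Eif3f (chr7:108934400-108934429, plus strand): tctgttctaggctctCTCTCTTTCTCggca
A C followed by 4 or more C or T at the annotated start was found for 15 of 62 ribosomal protein genes matched by symbol (24.2%) and for 280 of 8985 matched genes of all those tested (3.12%), reading the gene's own strand only. Annotated starts can lie a few bases from the true one: within 5 bases of the start, such a run was present for 50.0% of the ribosomal protein genes and 24.2% of all matched genes. Among the ribosomal protein genes the median TE change was -0.71 with the exact motif and -0.60 without it. Of 14 matched genes among the other TOP mRNAs, only the 2 shown, Nap1l1 and Eif3f, had the exact motif (14.3%). Within 5 bases of the start 35.7% had such a run. The median TE change of these other TOP mRNAs was 0.30 with the exact motif and 0.48 without it.

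Rpl35, in the first of these lines, had log2 ratios of -1.96, -2.54 and -2.25 in the NoMethionine lysates and -0.85, -0.85 and -0.99 in the Control lysates, and TE fell by 1.38 ± 0.16 (adjusted p = 2.9e-08). Every NoMethionine lysate lay below every Control lysate. Rpl15 (-1.04 ± 0.11) and Rps15a (-0.98 ± 0.14) fell too. Rps10 and Rpl14, with similar starts, were at -0.28 ± 0.29 and -0.23 ± 0.10 and did not pass (adjusted p = 0.45 and 0.065), but Rpl14 passed with the lysate as a replicate block (adjusted p = 0.026). Without NoMethionine lysate 1 both passed, with Rps10 at -0.71 and Rpl14 at -0.28 (adjusted p = 0.038 and 0.018). Rps16 (-1.58 ± 0.31), Rps7 (-1.30 ± 0.13) and Rpl39 (-1.37 ± 0.18) were among the lowest. Rpl3, which encodes the core protein next to the peptidyl transferase centre, went the other way. Its log2 ratios were -0.03, -0.04 and -0.05 in NoMethionine lysates and -0.64, -0.61 and -0.64 in Control lysates, and TE rose by 0.59 ± 0.07 (adjusted p = 1.1e-08). Rpl6 also rose, by 0.30 ± 0.11, a call lost without NoMethionine lysate 1 (adjusted p = 0.095) or Control lysate 2 (adjusted p = 0.17), and Rpl4, Rpl5 and Rps4x were at -0.06 ± 0.08, -0.02 ± 0.09 and 0.20 ± 0.09 without passing, of which Rps4x passed with the block (adjusted p = 0.029) and with ribosomal RNA entries removed before scaling (adjusted p = 0.0048). Ribosomal protein genes have many processed pseudogenes with which reads may be shared.

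The other TOP mRNAs, which encode translation factors and RNA-binding proteins, moved in both directions. Of 20 measured, TE rose for 10 and fell for 6, with a median of 0.33, 0.46 above that of all genes. Eef1a1, the elongation factor that delivers aminoacyl-tRNA to the ribosome, had 10982, 11371 and 11380 CPM in the NoMethionine polysome libraries and 6749, 6457 and 6301 CPM in the Control polysome libraries. Its total RNA was 15172, 15378 and 16736 CPM (NoMethionine) and 17780, 18205 and 18732 CPM (Control). Polysome RNA was higher and total RNA lower in every NoMethionine library, and TE rose by 1.00 ± 0.08 (adjusted p = 5.4e-11). Eef2, the translocation factor, rose by 0.94 ± 0.10, Vim, the intermediate filament vimentin, by 0.87 ± 0.10, the eIF3 scaffold gene Eif3a by 0.85 ± 0.21 and Eif3f, shown above, by 0.60 ± 0.08. Those that fell included Btf3 (-1.14 ± 0.10) and Naca (-0.51 ± 0.10), the subunits of the nascent polypeptide-associated complex, the cyclophilin gene Ppia (-1.07 ± 0.10) and the small elongation factor subunit gene Eef1b2 (-0.70 ± 0.11). Nap1l1, also shown above, was at 0.01 ± 0.10.

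Initiation factors split as well: of 36, TE rose for 8 and fell for 18 (19.2% and 29.9% of all genes). The median was -0.19, -0.06 relative to that of all genes. With ribosomal RNA entries removed before scaling, 12 rose and 14 fell. Eif1, which guards start codon selection, fell furthest. Its log2 ratios were -1.03, -1.05 and -0.93 in the NoMethionine lysates and 0.85, 0.50 and 0.48 in the Control lysates, without overlap, and TE fell by 1.62 ± 0.11 (adjusted p = 1.3e-12). Total RNA of Eif1 rose by 0.48 ± 0.08 while its polysome RNA fell by 1.13 ± 0.08. Eif1ax (-1.41 ± 0.12), Denr (-1.14 ± 0.13), a reinitiation factor, and Eif1b (-1.08 ± 0.12) followed. The cap-binding protein gene Eif4e (-0.52 ± 0.08) and the eIF2α gene Eif2s1 (-0.43 ± 0.10) fell less far. With the 2 conditions fitted alone Eif2s1 was at -0.305 and just lost the call (adjusted p = 0.05 when rounded). The large eIF3 subunit genes Eif3c (0.85 ± 0.24) and Eif3d (0.78 ± 0.12) and the alternative initiation factor gene Eif2a (0.64 ± 0.09) rose. The scaffold gene Eif4g1 was at 0.65 ± 0.37 and did not pass (adjusted p = 0.15), but passed with the lysate as a block (adjusted p = 1.6e-07).

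Aminoacyl-tRNA synthetases, which charge tRNAs and are ATF4 targets in part, were the list with the highest median among those drawn above, 0.46, 0.59 above that of all genes. Of 22 genes of the list, which includes the scaffold proteins of the multisynthetase complex, TE rose for 17 and fell for 2. Mars1, the methionyl-tRNA synthetase, had log2 ratios of 0.20, 0.49 and 0.31 in the NoMethionine lysates and -0.71, -0.87 and -0.82 in the Control lysates. Its TE rose by 1.13 ± 0.12 (adjusted p = 8.9e-09), on top of a rise of 0.38 ± 0.09 in total RNA, so that polysome RNA reached 308 ± 29.3 CPM, against 108 ± 2.84 CPM in Control (SD, n = 3 each). Eprs1 had log2 ratios of 0.01, 0.26 and 0.27 in NoMethionine lysates and -1.19, -0.94 and -1.16 in Control lysates. The threonyl, glutaminyl, alanyl and arginyl enzymes followed, with Tars1 at 1.11 ± 0.13, Qars1 at 1.04 ± 0.08, Aars1 at 0.98 ± 0.16 and Rars1 at 0.96 ± 0.11. Hars1 (0.18 ± 0.08) did not pass, and passed with ribosomal RNA entries removed before scaling (adjusted p = 0.0014). The members that fell were the small scaffold proteins Eef1e1 (-1.39 ± 0.14) and Aimp2 (-0.43 ± 0.12), which charge no tRNA. With the 2 conditions fitted alone Aimp2 was at -0.31 and lost the call (adjusted p = 0.063). Of 38 ribosome biogenesis factors 21 rose and 5 fell, against 19.2% and 29.9% of all genes. Nop2, an rRNA methyltransferase (1.02 ± 0.22), Heatr1 (0.95 ± 0.22) and Nolc1 (0.94 ± 0.27) were highest, and the small box H/ACA particle proteins Nop10 (-1.48 ± 0.15) and Nhp2 (-1.05 ± 0.13) were lowest.

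Oxidative phosphorylation held one of the broadest falls. Nuclear-encoded subunits of the respiratory chain and ATP synthase had lower TE in 65 of 76 cases and higher TE in 5, where 29.9% and 19.2% of all genes were lower and higher. The list median was -1.01, -0.87 relative to that of all genes. The median change was 0.01 in total RNA and -1.02 in polysome RNA. Ndufb4, an accessory subunit of complex I, was lowest. It had 9.61, 9.39 and 8.12 CPM in NoMethionine polysome RNA and 28.9, 30.5 and 28.1 CPM in Control polysome RNA, with 21.7, 40.1 and 29.8 CPM and 27.2, 30.6 and 30.5 CPM in NoMethionine and Control total RNA. The polysome libraries separated fully and the total RNA libraries overlapped, and TE fell by 1.75 ± 0.18 (adjusted p = 4.2e-09). Cycs, the electron carrier cytochrome c, had log2 ratios of -1.13, -1.51 and -1.39 in NoMethionine lysates and 0.11, 0.30 and 0.16 in Control lysates and fell by 1.55 ± 0.13. Both genes were less low in NoMethionine lysate 1 than in lysates 2 and 3.

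By complex, 31 of 36 Nduf genes, most of them of complex I, fell (median -0.97), as did 7 of 9 genes of complex III (-0.92), 9 of 10 Cox genes of complex IV (-1.26) and 14 of 16 genes of ATP synthase (-1.08). Cox7b (-1.56 ± 0.16), Atp5mg (-1.60 ± 0.16), Atp5mk (-1.53 ± 0.18) and Uqcr10 (-1.41 ± 0.19), all small accessory subunits, were near the lower end. Within complexes the members differed in direction. Ndufs1, the largest subunit of complex I, had log2 ratios of 0.70, 0.81 and 0.83 in NoMethionine lysates and -0.12, -0.04 and -0.21 in Control lysates, and TE rose by 0.91 ± 0.14 (adjusted p = 2.5e-06). Sdha, the flavoprotein of complex II, rose by 0.71 ± 0.14, and Sdhb, Sdhc and Sdhd, its partners, fell (-0.46 ± 0.09, -0.62 ± 0.10 and -0.91 ± 0.09). In ATP synthase the catalytic α and β subunit genes Atp5f1a and Atp5f1b rose by 0.35 ± 0.08 and 0.25 ± 0.08, and the γ, δ and ε subunit genes Atp5f1c, Atp5f1d and Atp5f1e fell (-0.94 ± 0.12, -1.14 ± 0.14 and -1.33 ± 0.17). The core proteins of complex III, Uqcrc1 and Uqcrc2, were at -0.04 ± 0.09 and 0.05 ± 0.10 and did not pass. Transcript and protein lengths were not analysed here.

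**Figure D3:**
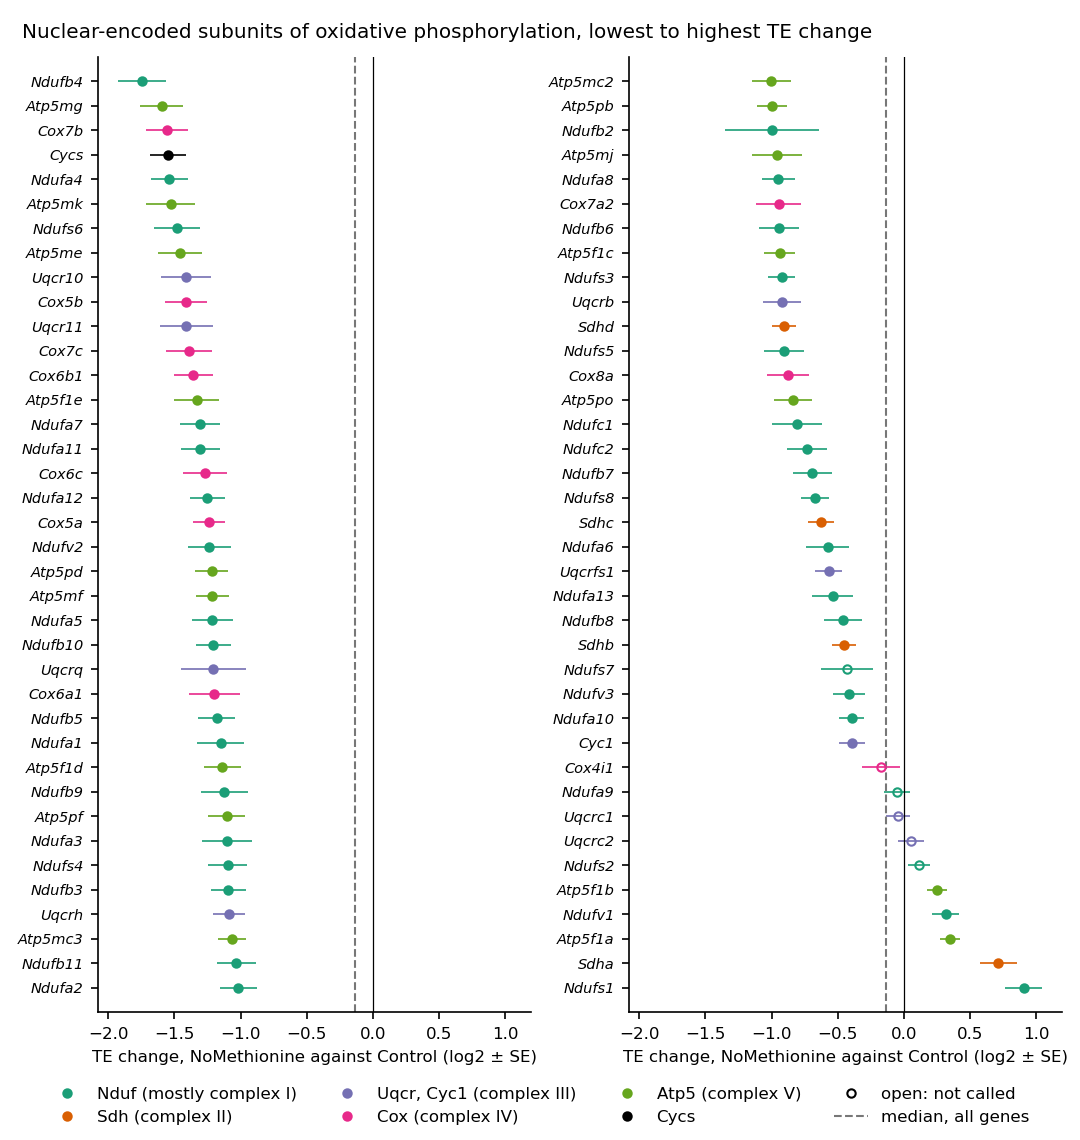
TE change (log2, x axis, with the standard error of the fit) of the 76 nuclear-encoded subunits of oxidative phosphorylation, from the lowest (top left) to the highest (bottom right), coloured by the complex that the gene symbol names. Filled points passed the test and the dashed line is the median of all genes. Subunits fell in every complex, and the 5 that rose, Atp5f1b, Ndufv1, Atp5f1a, Sdha and Ndufs1, stand at the lower right.

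Mitochondrial ribosomal proteins, which are made on cytosolic ribosomes, had lower TE for most members. It was lower for 67 of 76 and higher for 2, with a median of -0.86, -0.72 relative to that of all genes. Mrps33 (-1.66 ± 0.16) and Mrpl34 (-1.51 ± 0.21) were lowest, and Mrps31 (0.70 ± 0.15) and Mrpl47 (0.28 ± 0.11) were those that rose. Without Control lysate 3 Mrpl47 was at 0.24 (adjusted p = 0.13), and its call was also lost without Control lysate 2 or NoMethionine lysate 1. The mRNAs encoded in mitochondrial DNA are translated inside mitochondria, and their presence in the gradient pool does not measure cytosolic translation. They made up 0.0803 to 0.0809% of counts in NoMethionine polysome libraries and 0.158 to 0.176% in Control polysome libraries, and 6 of 10 had a lower ratio.

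Replication histones, which package new DNA in S phase and whose mRNAs end in a stem-loop in place of a poly(A) tail, had the lowest list median, -1.75, -1.62 relative to that of all genes. TE fell for 49 of 50, and 0 rose with edgeR's test, at an unadjusted p under 0.05 or with DESeq2. Here total RNA moved as well. It rose for 45 of the 50 (median 1.26), where 18.4% of all genes rose, and polysome RNA fell for 16 and rose for 1 (median -0.44), where 38.4% and 28.4% of all genes fell and rose. Their share of counts was 0.725 to 1.18% in NoMethionine total RNA and 0.393 to 0.411% in Control total RNA. In polysome libraries it was 0.314 to 0.419% and 0.349 to 0.530%, and those ranges overlapped.

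H1f4, a linker histone gene with many reads, had 427, 683 and 584 CPM in NoMethionine total RNA and 230.0, 229.5 and 232 CPM in Control total RNA, against 193, 166 and 204 CPM and 280.3, 243 and 317 CPM in NoMethionine and Control polysome RNA. Total RNA was higher and polysome RNA lower in every NoMethionine library, and TE fell by 1.87 ± 0.20 (adjusted p = 4.7e-09). H2bc14, an H2B gene, had log2 ratios of -1.06, -1.90 and -1.47 in NoMethionine lysates and 0.36, 0.27 and 0.65 in Control lysates, and fell by 1.93 ± 0.21 (adjusted p = 7.9e-09). For H4c6, an H4 gene, the log2 ratios were -1.55, -2.67 and -1.61 and -0.28, -0.52 and 0.35 in the NoMethionine and Control lysates, and TE fell by 1.84 ± 0.37. In all 3 genes NoMethionine lysate 2 was the lowest and no lysate of 1 condition overlapped the other. By class the medians were -2.12 for H2A, -1.85 for H4, -1.70 for H3, -1.54 for H2B and -1.26 for H1. Without NoMethionine lysate 2 the list median was -1.38 with 35 genes lower, and without Control lysate 3 it was -1.47 with 37 lower. H2bc21, at -0.49 ± 0.28, was the member that did not pass, though it passed without Control lysate 1 (adjusted p = 0.047).

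**Figure D4:**
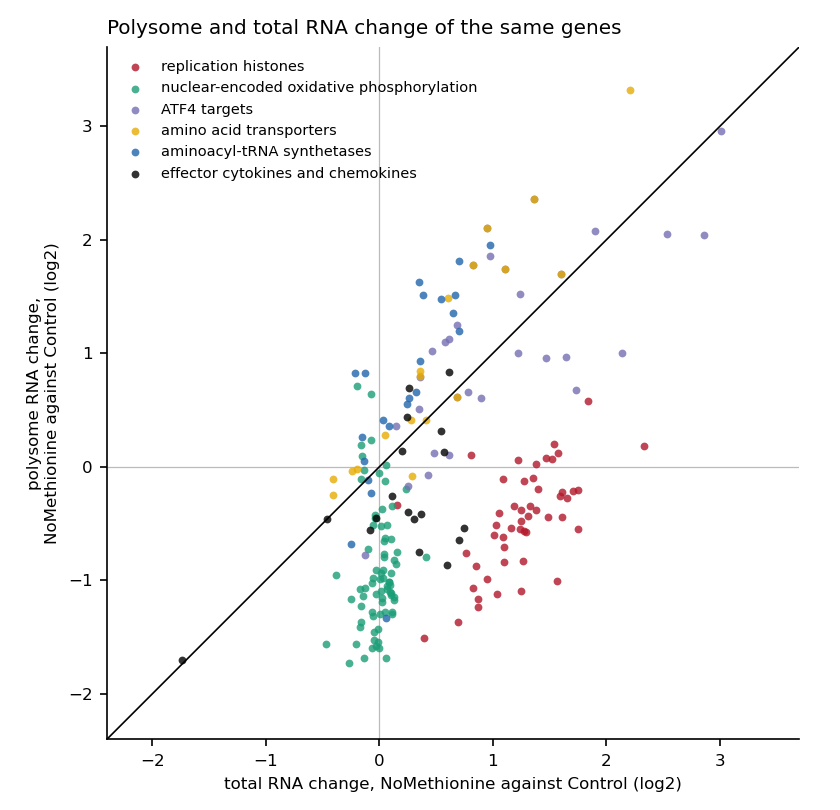
Change in polysome RNA (y axis) against change in total RNA (x axis), NoMethionine against Control on the log2 scale, for the measured genes of 6 lists. Points on the diagonal have no TE change and points below it a lower TE. Histones lie to the lower right (total RNA median 1.26, polysome median -0.44), oxidative phosphorylation genes straight down from 0 (0.01 and -1.02) and ATF4 targets along the diagonal in the upper right (0.89 and 1.00).

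Genes that make and use methionine and SAM moved in both directions: of 20 measured, TE rose for 5 and fell for 9 (19.2% and 29.9% of all genes), with a median of -0.27, -0.13 relative to that of all genes. With ribosomal RNA entries removed before scaling, 7 rose and 7 fell. Mat2a, the enzyme that makes SAM from methionine and whose mRNA is stabilised when SAM is low, had 1174, 1218 and 1189 CPM in NoMethionine polysome RNA and 369.9, 303 and 307 CPM in Control polysome RNA. Its log2 ratios were 0.77, 0.88 and 0.90 in NoMethionine lysates and 0.02, 0.00 and -0.09 in Control lysates, without overlap. TE rose by 0.87 ± 0.13 (adjusted p = 1.6e-06) beside a rise of 1.00 ± 0.09 in total RNA. Mat2b, its regulatory subunit, fell by 0.62 ± 0.09. Mtr, methionine synthase, which remakes methionine from homocysteine, had log2 ratios of 0.42, 0.87 and 0.73 in NoMethionine lysates and -0.37, -0.36 and -0.57 in Control lysates, and TE rose by 1.09 ± 0.19 while total RNA was at -0.10 ± 0.14. Its partner Mtrr was at 0.06 ± 0.09 and did not pass. Ahcy, which removes the product of methylation reactions, rose by 0.44 ± 0.08. Those that fell included Msrb1 (-1.14 ± 0.13) and Msra (-0.61 ± 0.17), which reduce oxidised methionine, and the salvage pathway genes Adi1 (-0.85 ± 0.15), Enoph1 (-0.49 ± 0.11) and Apip (-0.49 ± 0.13). Bmt2, the SAM sensor of mTORC1, fell by 0.84 ± 0.15.

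In the folate and serine branch of one-carbon metabolism, 8 of 17 genes rose and 6 fell (19.2% and 29.9% of all genes). The trifunctional enzyme gene Mthfd1 rose by 1.07 ± 0.18, its mitochondrial relative Mthfd1l by 1.09 ± 0.15 and Shmt2 by 0.56 ± 0.13, and Mthfs (-0.93 ± 0.24) and Mthfd2 (-0.50 ± 0.07) fell. Polyamine synthesis, which uses decarboxylated SAM, had 7 of 14 genes lower, among them the spermidine and spermine synthases, Srm (-0.61 ± 0.11) and Sms (-0.58 ± 0.10). In the same list 0 rose with edgeR's test, and 1 rose at an unadjusted p under 0.05 and 1 with DESeq2. With ribosomal RNA entries removed before scaling, 4 of the 14 were lower and 2 higher. Of 45 methyltransferases of histones and RNA, 8 rose and 9 fell (12 and 7 with ribosomal RNA entries removed before scaling). These shares, 17.8% and 20%, were below the 19.2% and 29.9% of all genes. Prmt5, an arginine methyltransferase (0.85 ± 0.11), Setdb1 (0.76 ± 0.12) and Setd2 (0.72 ± 0.17) were highest, and Trmt112, a partner subunit of several RNA methyltransferases, was lowest (-1.03 ± 0.15).

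ATF4, the transcription factor of the amino acid response, had no TE change that passed. Atf4 log2 ratios were -0.42, -0.59 and -0.63 in NoMethionine lysates and -0.65, -0.51 and -0.65 in Control lysates, which overlapped, and TE was at 0.06 ± 0.09 (adjusted p = 0.65). Polysome RNA of Atf4 was 761 ± 25.6 CPM in NoMethionine and 434 ± 27.3 CPM in Control (SD, n = 3 each), and its total RNA rose by 0.76 ± 0.07. Ddit3, which encodes CHOP, had total RNA of 141, 139 and 161 CPM in NoMethionine and 18.3, 18.6 and 17.7 CPM in Control, with TE at -0.06 ± 0.11 (adjusted p = 0.71). Of 13 mRNAs with upstream open reading frames reported to resist eIF2α phosphorylation, TE rose for 3 and fell for 4 (19.2% and 29.9% of all genes). Those that rose were Eprs1, Ibtk (0.67 ± 0.17) and Ppp1r15a (0.32 ± 0.09), which encodes the eIF2α phosphatase subunit GADD34. Uchl5 (-0.99 ± 0.11) and Gadd45a (-0.73 ± 0.19) fell, and Atf5 was at 0.09 ± 0.16.

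ATF4 target genes rose in total RNA in 29 of 31 cases (median 0.89, where 18.4% of all genes rose) and in polysome RNA in 26 (median 1.00). TE rose for 12 and fell for 12 (14 and 8 with ribosomal RNA entries removed before scaling), against 19.2% and 29.9% of all genes, and the median of -0.06 changed sign with the scaling (0.07 without ribosomal RNA entries). Among those that rose were the amino acid transporter genes Slc7a3 (1.16 ± 0.17), Slc3a2 (1.00 ± 0.16), Slc38a2 (0.96 ± 0.13) and the amino acid synthesis genes Aldh18a1 (0.88 ± 0.12), Asns (0.51 ± 0.09) and Phgdh (0.51 ± 0.11). Among those that fell were the genes of transcription factors and regulators Cebpb (-1.14 ± 0.20), Atf3 (-1.06 ± 0.08), Nupr1 (-0.82 ± 0.15) and Trib3 (-0.49 ± 0.10), and the glutathione-degrading enzyme gene Chac1 (-0.68 ± 0.12).

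The full list of amino acid transporters had 8 of 18 genes with a higher TE (11 with ribosomal RNA entries removed before scaling), against 19.2% of all genes. It had 0 with a lower one by edgeR's test, at an unadjusted p under 0.05 or by DESeq2, and total RNA rose for 11, against 18.4% of all genes. Slc3a2, the heavy chain shared by the transporters that carry methionine and other large neutral amino acids, had 1268, 1489 and 1616 CPM in NoMethionine polysome RNA and 261, 276 and 314 CPM in Control polysome RNA. Its total RNA was 685, 778 and 834 CPM in NoMethionine and 272, 318 and 304 CPM in Control. Both fractions separated fully, and TE rose by 1.00 ± 0.16 (adjusted p = 3.8e-06). Slc7a5, its main partner for methionine uptake in activated T cells, rose by 0.69 ± 0.09 in total RNA, with TE at -0.07 ± 0.13 (adjusted p = 0.68). Slc1a4, a carrier of small neutral amino acids, rose most in polysome RNA, by 3.32 ± 0.12, to 258, 309.6 and 331 CPM, against 29.3, 28.8 and 31.6 CPM in Control, and its TE rose by 1.11 ± 0.15. Slc1a5, the glutamine carrier, rose by 0.88 ± 0.17 in TE. The methionine carriers Slc43a1 (0.15 ± 0.30) and Slc43a2 (0.17 ± 0.13) did not pass.

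Among kinases and phosphatase subunits that set eIF2α phosphorylation, the GCN2 gene Eif2ak4 rose by 0.44 ± 0.11 and the GCN1 antagonist gene Impact by 0.48 ± 0.13, and the catalytic subunit genes Ppp1ca (-0.90 ± 0.12), Ppp1cc (-0.73 ± 0.10) and Ppp1cb (-0.44 ± 0.10) fell. In the nutrient-sensing pathway of mTORC1, 8 of 39 genes rose and 13 fell. These shares, 20.5% and 33.3%, were near the 19.2% and 29.9% of all genes, and with ribosomal RNA entries removed before scaling 12 rose and 11 fell. The kinase gene Mtor rose (0.46 ± 0.13), as did Tsc1 (0.72 ± 0.14) and Wdr59 (0.75 ± 0.14). The small Ragulator subunit genes Lamtor4 (-1.30 ± 0.19), Lamtor3 (-0.91 ± 0.14), Lamtor2 (-0.84 ± 0.16) and Lamtor5 (-0.74 ± 0.16) and the GTPase gene Rheb (-0.92 ± 0.12) fell.

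Cytokines and chemokines of CD8+ T cells had lower TE in 9 of 18 cases, against 29.9% of all genes (median -0.43, -0.29 relative to that of all genes). The count that rose was 0 with edgeR's test, 1 at an unadjusted p under 0.05 and 1 with DESeq2. With ribosomal RNA entries removed before scaling, 8 were lower and 2 higher. Ccl3, a chemokine that draws monocytes and T cells, had 304, 339 and 325 CPM in NoMethionine polysome RNA and 514, 643 and 611 CPM in Control polysome RNA. In total RNA it had 519.6, 585 and 625 CPM and 349, 403 and 394 CPM in NoMethionine and Control, so the 2 fractions moved in opposite directions in every library. Its TE fell by 1.46 ± 0.13 (adjusted p = 3e-10). Ccl4 (-1.35 ± 0.14), Xcl1, which attracts cross-presenting dendritic cells (-1.29 ± 0.17), and Ccl5 (-1.09 ± 0.21) fell as well. Ifng, which encodes interferon-γ, had log2 ratios of -0.09, -0.11 and -0.31 in NoMethionine lysates and 0.39, 0.57 and 0.46 in Control lysates and fell by 0.65 ± 0.14 (adjusted p = 0.00033), with total RNA at 0.26 ± 0.10. Tnf was at 0.22 ± 0.13 and Fasl at 0.20 ± 0.13 without passing (adjusted p = 0.17 and 0.24), though Tnf passed with the lysate as a block (adjusted p = 0.027) and with ribosomal RNA entries removed before scaling (adjusted p = 0.035), and total RNA of Tnf rose by 0.61 ± 0.09.

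Of 17 genes of the cytotoxic granule 4 rose in TE and 8 fell (19.2% and 29.9% of all genes). That balance turned with the scaling: with ribosomal RNA entries removed first 7 rose and 5 fell, and with the 2 conditions fitted alone 6 rose and 4 fell. Gzmb, granzyme B, had log2 ratios of 0.26, 0.11 and 0.13 in NoMethionine lysates and 0.52, 0.73 and 0.52 in Control lysates, without overlap, and fell by 0.44 ± 0.14 (adjusted p = 0.011). Without Control lysate 2 its change was -0.36 (adjusted p = 0.059), and with ribosomal RNA entries removed before scaling it was -0.31 (adjusted p = 0.073), so the call did not hold in either. The granule proteoglycan gene Srgn (-0.87 ± 0.16) and Nkg7 (-0.79 ± 0.13) fell. The pore-forming protein gene Prf1 was at 0.27 ± 0.15 and did not pass, though it passed with the lysate as a block (adjusted p = 0.0039) and with ribosomal RNA entries removed before scaling (adjusted p = 0.028), and the granule fusion gene Stxbp2 (0.49 ± 0.12) rose. Of 21 T cell receptor and signalling genes 4 rose and 7 fell (19% and 33.3%, near the shares of all genes). Their median was -0.08, against -0.14 for all genes. In the receptor complex, Cd3g (-1.22 ± 0.15), Cd3e (-1.09 ± 0.14) and Cd247, the ζ chain (-0.64 ± 0.12), fell. Cd3e had 46.1, 43.9 and 49.5 CPM in NoMethionine polysome RNA and 109.8, 109 and 109 CPM in Control polysome RNA. Those libraries did not overlap. Cd3d was at -0.30 ± 0.15 and Cd8a at -0.13 ± 0.14 without passing (Cd3d passed with the block, adjusted p = 0.0058), Cd8b1 fell by 0.43 ± 0.12, a call lost with the 2 conditions fitted alone (adjusted p = 0.07), and the signalling genes Lck (-0.66 ± 0.08) and Lat (-0.70 ± 0.13) fell. Ptprc, the CD45 phosphatase, had log2 ratios of 0.29, 0.51 and 0.49 in NoMethionine lysates and -0.53, -0.66 and -0.65 in Control lysates and rose by 1.05 ± 0.14 (adjusted p = 2.4e-07). Plcg1 rose by 0.69 ± 0.12 and Cd5 by 0.61 ± 0.17.

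Where 19.2% of all genes rose and 29.9% fell, of 20 cytokine receptor and feedback genes 6 rose, with Il4ra at 1.03 ± 0.15, Jak1 at 0.96 ± 0.15 and the common γ chain gene Il2rg at 0.73 ± 0.22, and 4 fell, with Socs2 at -0.82 ± 0.12, the interleukin-2 receptor α chain gene Il2ra at -0.66 ± 0.11 and Il12rb2 at -0.65 ± 0.13. Among inhibitory and costimulatory receptors 4 of 16 rose and 5 fell (25% and 31.2%, near the shares of all genes; 5 and 5 with ribosomal RNA entries removed before scaling). Lag3 was at 0.78 ± 0.18, Cd27 at -0.79 ± 0.15 and Tigit at -0.76 ± 0.21, and Tigit lost its call with the 2 conditions fitted alone (adjusted p = 0.054). Of 19 effector transcription factors 9 rose and 5 fell. Id2, a small helix-loop-helix inhibitor needed by effector cells, had log2 ratios of -1.56, -2.17 and -2.18 in NoMethionine lysates and -0.56, -0.56 and -0.71 in Control lysates and fell by 1.37 ± 0.14 (adjusted p = 1.7e-09), and the AP-1 factor gene Batf fell by 1.12 ± 0.13. Stat3 (0.74 ± 0.13), Irf4 (0.63 ± 0.12), Prdm1 (0.60 ± 0.13), Hif1a (0.51 ± 0.10) and Tbx21 (0.45 ± 0.11) rose. Myc rose by 0.47 ± 0.16, a call lost without NoMethionine lysate 2 or 3 or Control lysate 2 (adjusted p = 0.071, 0.058 and 0.13). Among naive and memory genes Id3 (-1.20 ± 0.17) and Tcf7 (-0.68 ± 0.12) fell, in a list with 4 of 15 lower and 1 higher (3 and 4 with ribosomal RNA entries removed before scaling). Immediate early genes had 5 of 26 higher and 7 lower in TE, 19.2% and 26.9%, near the shares of all genes, and with ribosomal RNA entries removed before scaling 7 were higher and 5 lower. Their total RNA rose for 19, against 18.4% of all genes, and in TE Egr2 was highest (0.74 ± 0.10).

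Genes of the list drawn as cytosolic chaperones had higher TE in 15 of 25 cases and lower TE in 5 (19.2% and 29.9% of all genes). The list median was 0.45, 0.59 above that of all genes, although total RNA fell for 16, where 16.0% of all genes fell. Hsp90aa1 had log2 ratios of 0.77, 0.89 and 0.88 in NoMethionine lysates and -0.31, -0.36 and -0.44 in Control lysates, Hsp90ab1 rose by 0.93 ± 0.09, and 6 of 7 subunits of the chaperonin TRiC rose. The mitochondrial chaperonin pair moved apart: Hspd1, the large subunit, rose by 0.59 ± 0.11 and Hspe1, its small co-chaperonin, fell by 1.04 ± 0.14. The lowest change of the chaperone list was also -1.04, so the list may not be cytosolic alone. In the endoplasmic reticulum the chaperone gene Hspa5 had log2 ratios of 0.79, 0.77 and 0.88 in NoMethionine lysates and -0.27, -0.40 and -0.33 in Control lysates and rose by 1.15 ± 0.16 (adjusted p = 6.7e-07). Hyou1 rose by 0.94 ± 0.16 and Hsp90b1 by 0.89 ± 0.15. Small proteins of the same compartment, Sec61b of the translocon (-1.23 ± 0.16), Sdf2l1 (-0.89 ± 0.15) and Manf (-0.84 ± 0.16), fell, in a list with 9 of 25 higher and 8 lower (19.2% and 29.9% of all genes).

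Antioxidant enzymes fell in 18 of 28 cases and rose in 2, against 29.9% and 19.2% of all genes (median -0.51, -0.38 relative to that of all genes). With ribosomal RNA entries removed before scaling, 18 fell and 4 rose. Txn1, thioredoxin, had 98.4, 109.7 and 103 CPM in NoMethionine polysome RNA and 311, 398 and 350.4 CPM in Control polysome RNA, without overlap, and TE fell (adjusted p = 1.6e-09), with log2 ratios of -1.80, -2.09 and -2.00 in NoMethionine lysates and -0.53, -0.35 and -0.57 in Control lysates. The superoxide dismutase gene Sod1 (-1.30 ± 0.12), Prdx5 (-1.10 ± 0.13) and the selenoenzyme genes Gpx4 (-1.08 ± 0.15) and Gpx1 (-1.04 ± 0.12) fell. Nfe2l2, which encodes the regulator NRF2, rose by 0.82 ± 0.10, and catalase (Cat) by 0.62 ± 0.12. The enzymes that make glutathione, Gclc (-0.04 ± 0.10) and Gss (0.08 ± 0.10), did not pass.

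Glycolysis and HIF target genes rose in TE in 14 of 24 cases and fell in 5 (19.2% and 29.9% of all genes), while total RNA fell for 17, against 16.0% of all genes. The phosphofructokinase gene Pfkp (1.09 ± 0.15), the glucose transporter gene Slc2a3 (1.04 ± 0.15) and Pkm (0.97 ± 0.12), pyruvate kinase, were highest. Bnip3, a mitophagy receptor (-1.51 ± 0.14), and Egln3 (-1.03 ± 0.10) were lowest, and Gapdh was at 0.04 ± 0.10 without passing. Cholesterol synthesis genes fell in total RNA in 21 of 24 cases, against 16.0% of all genes, and TE rose for 7 and fell for 6. Of 6 MondoA targets Txnip, Klf10 and Hbp1 rose, Txnip by 0.89 ± 0.18.

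In the cell cycle list 19 of 46 genes rose and 15 fell (19.2% and 29.9% of all genes). All 6 subunits of the replicative helicase rose, from Mcm6 (0.64 ± 0.13) to Mcm3 (1.17 ± 0.16), as did Rrm1 (1.14 ± 0.22), Top2a (1.09 ± 0.14) and the kinesin gene Kif11 (1.08 ± 0.14). Birc5, survivin (-1.21 ± 0.11), the CDK inhibitor gene Cdkn1a (-0.84 ± 0.10), cyclin A2 (Ccna2, -0.81 ± 0.12) and Pcna (-0.49 ± 0.09) fell. Of 39 proteasome subunit genes 19 fell and 5 rose (17 and 9 with ribosomal RNA entries removed before scaling). Of 17 genes of the catalytic core 12 fell, of 6 ATPase subunits of the cap 2 rose, and of 13 Psmd genes, most of them of the cap, 3 rose and 5 fell. Psmd1 and Psmd2, the largest cap proteins, rose by 0.97 ± 0.13 and 0.67 ± 0.11. Lysosome and autophagy genes fell in 15 of 33 cases, with the ubiquitin-like proteins of autophagosomes Gabarap (-1.02 ± 0.14), Gabarapl2 (-0.95 ± 0.11) and Map1lc3b (-0.87 ± 0.11) among them, and rose in 6 (13 and 11 with ribosomal RNA entries removed before scaling), with the cholesterol exporter gene Npc1 at 0.93 ± 0.16. Of 16 factors of nonsense-mediated decay 9 rose, Upf1 by 0.83 ± 0.19, and 3 fell, with Magoh at -0.85 ± 0.14. Of 317 zinc finger genes with a Zfp symbol 106 rose and 34 fell (median 0.19, 0.33 above that of all genes), and with ribosomal RNA entries removed before scaling 133 rose and 22 fell. Host transcripts of snoRNAs, which carry few ribosomes, passed in 2 of 14 cases, both lower (1 with ribosomal RNA entries removed before scaling).

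The response was set against 3 other amino acid deprivations by testing the difference of the TE terms, in which Control drops out. TE was higher without methionine than without BCAA for 643 genes (4.92%) and lower for 1288 (9.85%). Against glutamine removal 1088 were higher (8.32%) and 1107 lower (8.47%), and against arginine removal 919 were higher (7.03%) and 2192 lower (16.8%). With the lysate as a replicate block, the difference from BCAA removal was called for 2946 genes in place of 1931. With the upper quartile for scaling, 581 genes were higher and 1485 lower against glutamine removal, and with size factors in place of TMM 1388 were higher and 1722 lower against arginine removal. The counts also depended on single lysates: without NoMethionine lysate 2, 1041 genes differed from BCAA removal and 1061 from glutamine removal, and without NoArginine lysate 3, 2031 differed from arginine removal. Replication histones were among the genes that differed: 38 of 50 were lower than without BCAA, 31 lower than without glutamine and 37 lower than without arginine. The count that was higher was 0 in each with edgeR's test, also at an unadjusted p under 0.05 and with DESeq2. Single lysates moved these counts by over 1.5 times. Without NoMethionine lysate 2, 16, 13 and 24 were lower than without BCAA, glutamine and arginine. Without NoBCAA lysate 2, 22 were lower than without BCAA, and with the 2 conditions fitted alone 16 were. NoBCAA lysate 1 stood apart from the other NoBCAA lysates: the log2 ratios of H2ac11 were -1.83, -4.02 and -2.39 in NoMethionine lysates and -2.99, -0.24 and -0.74 in NoBCAA lysates, so that the groups overlapped. Those of H2bc14 were -1.06, -1.90 and -1.47 in NoMethionine lysates and -0.33, 0.25 and 0.22 in NoBCAA lysates, without overlap. Without NoBCAA lysate 1, 49 of the 50 were lower. H2bc14 differed by -1.56 ± 0.21, -1.48 ± 0.21 and -1.63 ± 0.21 (adjusted p = 4.9e-06, 1.6e-05 and 9.6e-07) from the BCAA, glutamine and arginine responses. Against Control, the list medians were -1.75 without methionine, -0.36 without BCAA, -0.49 without glutamine, -0.32 without arginine and -0.85 without glucose. These 5 values share the Control libraries and are given side by side only.

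Oxidative phosphorylation genes were lower without methionine than without BCAA in 47 of 76 cases, than without glutamine in 32 and than without arginine in 50, and higher in 1, 6 and 0. For this and the next lists, the shares of all genes were 9.85%, 8.47% and 16.8% lower and 4.92%, 8.32% and 7.03% higher. Ndufb4 differed by -1.23 ± 0.18, -1.25 ± 0.19 and -1.44 ± 0.18 from the BCAA, glutamine and arginine responses. The count of oxidative phosphorylation genes lower than without glutamine was 20 without NoMethionine lysate 2 and 19 without NoGlutamine lysate 3. Mitochondrial ribosomal proteins were lower in 37, 36 and 52 of 76 cases. Of the 34 ribosomal proteins of the 40S subunit, 14 were lower than without BCAA and 6 lower than without glutamine. The count against glutamine was 2 without NoMethionine lysate 2 or 3, or without NoGlutamine lysate 1 or 3. It was 3 with the 2 conditions fitted alone and 10, with 2 higher, with the lysate as a block. Against arginine removal 2 were lower and 3 higher. The median TE change of the 40S proteins against Control was -0.62 without methionine and -0.63 without arginine. The other TOP mRNAs were higher than without arginine in 14 of 20 cases and lower in 2. Eef1a1 differed from the arginine response by 1.15 ± 0.08 (adjusted p = 1.5e-11), with a TE change against Control of 1.00 ± 0.08 without methionine and -0.15 ± 0.08 without arginine.

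Of 18 cytokine and chemokine genes 6, 7 and 7 were lower without methionine than without BCAA, glutamine and arginine. Of all genes 9.85%, 8.47% and 16.8% were lower in the same tests. The count that was higher was 0 in each with edgeR's test, also at an unadjusted p under 0.05 and with DESeq2. Ccl3 was lower without methionine: it differed by -1.34 ± 0.13 from the BCAA response, -1.33 ± 0.13 from the glutamine response and -1.55 ± 0.13 from the arginine response (adjusted p = 3.9e-08, 7.9e-08 and 6e-10). Ifng differed by -0.84 ± 0.14, -0.86 ± 0.14 and -0.92 ± 0.14. For Ccl5 none of the 3 differences passed (-0.08 ± 0.21, 0.02 ± 0.22 and 0.10 ± 0.21). Eif1 was lower in all 3 tests (-0.58 ± 0.11, -0.84 ± 0.11 and -0.84 ± 0.11). Mat2a was higher without methionine than without BCAA by 0.66 ± 0.13, than without glutamine by 0.43 ± 0.13 and than without arginine by 0.57 ± 0.13 (adjusted p = 0.00073, 0.023 and 0.0016). For Mars1 the same differences were 0.35 ± 0.12, 0.59 ± 0.12 and 0.55 ± 0.12 (adjusted p = 0.049, 0.0014 and 0.0013), for Mtr 0.49 ± 0.19, 0.23 ± 0.19 and 0.55 ± 0.19, of which the last passed, and for Atf4 -0.38 ± 0.09, -0.06 ± 0.09 and -0.18 ± 0.09, of which the first passed. By the rule for named genes, the highest against BCAA were Cass4 (0.96 ± 0.20), Myh10 (0.84 ± 0.26), Zfp516 (0.80 ± 0.25) and Nckap5l (0.77 ± 0.26), the last 3 of which lost the call without NoMethionine lysate 2 (adjusted p = 0.093, 0.087 and 0.076) and without other lysates. The lowest included Rpa3, a small subunit of the single-stranded DNA binding protein (-1.56 ± 0.18), beside 3 histones. Against glutamine, Maml3 (0.87 ± 0.19), Lrp5 (0.82 ± 0.20) and Oas3 (0.82 ± 0.18) were among the highest, while the TE changes of Maml3 and Lrp5 against Control did not pass (0.38 ± 0.19 and -0.28 ± 0.19, with Maml3 at an adjusted p of 0.045 with the lysate as a block and 0.026 with ribosomal RNA entries removed before scaling). Against arginine, Eef1a1 and its pseudogene Eef1a1-ps1 (1.23 ± 0.18), which may share reads, stood beside Myh10 (1.14 ± 0.26), and the 4 lowest were histones. The lowest of these, H2ac11, was at -1.01 without NoMethionine lysate 2 (adjusted p = 0.34). Its call was also lost without NoMethionine lysate 3 or NoArginine lysate 2 or 3, and just lost with ribosomal RNA entries removed before scaling. Mir703, a microRNA hairpin entry with 6.89 ± 1.47 CPM in NoMethionine polysome RNA (SD, n = 3), was the highest against glutamine (0.97 ± 0.20) and arginine (1.35 ± 0.20), and the mature microRNA is not measured by these libraries.

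**Figure D5:**
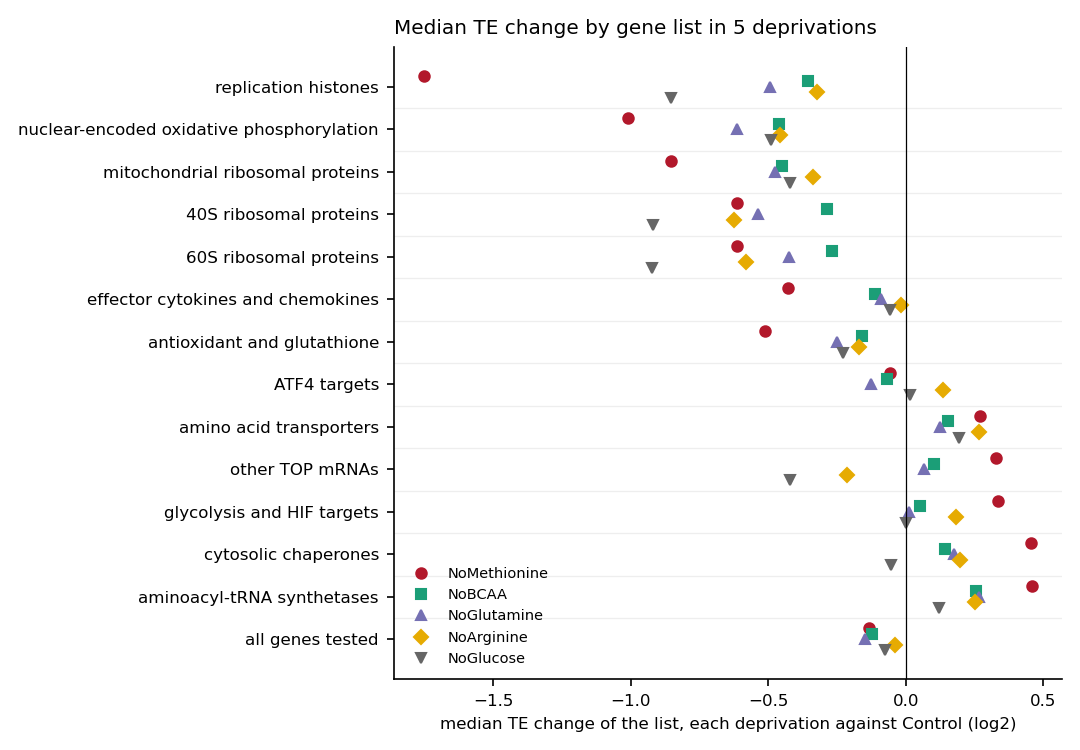
Median TE change against Control (log2, x axis) of 13 gene lists and of all genes tested (y axis) in 5 deprivations. Every value is set against the same 3 Control lysates. NoMethionine lies lowest for histones (-1.75), oxidative phosphorylation genes (-1.01), mitochondrial ribosomal proteins (-0.86), antioxidant genes (-0.51) and cytokines (-0.43), and highest for chaperones (0.45) and aminoacyl-tRNA synthetases (0.46), while glucose removal lies lowest for the 40S and 60S ribosomal proteins (-0.92 and -0.92).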

How the data were processed

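RNA was sequenced from the total lysate and from pooled polysome fractions. The authors deposited raw read counts per gene on mouse build GRCm39. Per the submitters' processing notes the tools included Trimmomatic, STAR, HTSeq and edgeR, without versions or roles, and strand handling is not given in the sources used here. Here, 36 libraries (6 conditions, 2 fractions, 3 replicates) entered 1 fit in edgeR 4.0.16 (R 4.3.3): filterByExpr with a minimum count of 10, TMM scaling, quasi-likelihood F tests, Benjamini-Hochberg adjustment over all genes tested. Standard errors are the absolute log2 change over the square root of F. Library totals, which set the precision, are given with the libraries above. Input and polysome libraries of 1 number share a lysate by the protocol, so they are paired by design. The correlation of their residuals averaged 0.0889 over the 6 NoMethionine and Control lysates (-0.0288 to 0.196). The fit has no block, and fits with the lysate or the replicate number as a block were alternatives.

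Members and gene lists were chosen with earlier results of these data known. Named genes are the 10 highest and 10 lowest by TE with a mean of at least 5 CPM, an adjusted p of at most 0.05 and separate lysates, the 4 at either end by the same criteria for each difference between deprivations, and, within lists, the called members of largest change, members with a central role and members that did not pass. Promoter sequences are from RefSeq (GRCm38.p6), matched by symbol. No coordinates were moved between builds. The 18 monosome libraries and protein properties were not analysed here. The procedure was tested on simulated data.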

Additional observations from a re-analysis of the deposited data

How the results depend on the processing

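The count of genes with a TE change, 6416, ranged from 5670 to 6835 over the planned scalings, filters, tests and blocks, and from 5696 to 6461 when 1 lysate was left out. The split moved with the scaling: 39.2% of calls were higher with TMM over all genes, 50.5% with ribosomal RNA entries removed first, 50.4% with the 2 conditions fitted alone and 46.4% with DESeq2. With the lysate as a replicate block 6835 genes were called, of which 6334 were shared with the unblocked fit and all in the same direction. Beside each gene of the report whose TE call against Control the block changed, its blocked p is given. The block changed no other TE call against Control named there. Differences between deprivations were checked gene by gene only for genes named by the rule, and the block changed none of those calls. For the other genes whose differences are given, such as Mtr, Atf4 and Mars1, the blocked call was not checked. Against BCAA removal the lysate block called 2946 genes, against 1931 without it. Against arginine removal the fit of the 2 conditions alone called 2068, against 3111.

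Leaving out 1 lysate gave 1041 to 2640 calls against BCAA removal, 1061 to 2965 against glutamine removal and 2031 to 3493 against arginine removal. Against BCAA the count was 1041 and 1109 without NoMethionine lysate 2 or 3, and 1281, 1256 and 1249 without NoBCAA lysate 1, 2 or 3. Against glutamine it was 1061 and 1181 without NoMethionine lysate 2 or 3, and 1182 and 1065 without NoGlutamine lysate 1 or 3. Against arginine it was 2031 without NoArginine lysate 3. These fits hold fewer lysates, and no other cause was tested. Scaling also moved the split of the differences: higher calls made up 49.6% against glutamine with TMM and 28.1% with the upper quartile, and 29.5% against arginine with TMM and 44.6% with DESeq2's size factors in edgeR. The block by replicate number gave 6719 TE calls.

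The alternative on protein properties was not run. With a minimum count of 50, 49 of 50 replication histones were still lower. The calls of H2ac8, H2ac13 and H2ac15 were lost without NoMethionine lysate 2 or Control lysate 3.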
